A study of Homo sapiens with 3 samples.

Results

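The miR-103/107 family was described in MCF12A cells from the probes for its human members, hsa-miR-103a-3p and hsa-miR-107. The members were picked by name and not by a measured value, but with earlier results of these data known. They are 2 of the 2019 microRNA probes on the array. MCF12A is an immortalized, non-tumorigenic human mammary epithelial cell line. RNA came from cells with no exposure (control), from cells kept with ethanol for 4 weeks and from cells kept with acetaldehyde, the oxidation product of ethanol, for 4 weeks. Each of the 3 groups had 1 array, so there is no replicate of a culture, no p-value is given. Both exposures are read against the same single control array.

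The label fields state different doses. The sample characteristics give 2.5 mM ethanol and 1 mM acetaldehyde, whereas the treatment protocol gives 2.5% and 1%, so the compounds were not given at matched doses on either reading. All groups shared a growth medium that held horse serum, cholera toxin, hydrocortisone, epidermal growth factor and insulin, so the control cells received insulin as well. The protocol also mentions a clone picked from soft agar, and the labels assign it to none of these arrays. The duration of culture of the control cells is not given in the labels.

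MicroRNAs are short RNAs that guide Argonaute proteins to messenger RNAs, mainly through the seed, bases 2 to 8 of the mature strand, and lower the output of those messengers. miR-103 and miR-107 are encoded within the genes of the pantothenate kinases, the enzymes that start coenzyme A synthesis. In mice they are known to lower insulin sensitivity in liver and fat, with caveolin-1 as a target, and in human breast cancer cells they are known to target DICER1, the enzyme that cuts microRNA precursors. miR-107 has also been described as induced by p53 together with its host gene PANK1.

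The mature sequences are shown because they set what the probes can tell apart. They are given 5′ to 3′ from RefSeq (GRCh38.p14) with the seed in capitals, and the targets named in the array files were equal to them for all 4 entries of the miR-103/107 name.
miR-103a-3p: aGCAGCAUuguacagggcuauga
miR-107: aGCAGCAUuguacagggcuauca
miR-103b: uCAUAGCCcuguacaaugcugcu
miR-103a-2-5p: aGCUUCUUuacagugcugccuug

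Both members are 23 bases long and share their first 21 bases. The only substitution from miR-103a-3p to miR-107 is G22C, counted from 1 at the 5′ end. The seeds are therefore the same, and no other target on the array has these bases at positions 2 to 8. Because the targets are nearly identical, each probe may bind both RNAs, and the share of either RNA in a probe's signal was not tested. miR-103b is read from the opposite strand of the miR-103a loci, and all 23 of its bases are the reverse complement of miR-103a-3p.

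The hairpin precursors are shown because miR-103a-3p has 2 of them and a microarray of mature strands cannot tell which one a signal came from. The mature miR-103a-3p or miR-107 is in capitals.
MIR103A1: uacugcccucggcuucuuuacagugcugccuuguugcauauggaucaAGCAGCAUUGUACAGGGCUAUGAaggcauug
MIR103A2: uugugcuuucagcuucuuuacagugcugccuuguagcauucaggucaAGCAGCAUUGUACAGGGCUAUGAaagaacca
MIR107: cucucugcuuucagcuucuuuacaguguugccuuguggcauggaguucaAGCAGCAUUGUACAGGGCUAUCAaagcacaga

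In GRCh38.p14, MIR103A1 lies on the minus strand at chr5:168560896-168560973, within the span of PANK3. Its mature strand is at chr5:168560904-168560926. MIR103A2 lies on the plus strand at chr20:3917494-3917571, within PANK2, with its mature strand at chr20:3917541-3917563. MIR107 lies on the minus strand at chr10:89592747-89592827, within PANK1, with its mature strand at chr10:89592756-89592778. Exon and intron positions were not used here, and the messenger RNAs of the host genes are not measured by these probes.

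Each probe had 4 spots per array, and the deposited value of a spot is its median intensity with no background subtracted. The miR-103a-3p spots read 2760, 2886, 3028 and 3002 on the control array. With ethanol they read 2398, 2425, 2240 and 2218. With acetaldehyde they read 4012, 4203, 4216 and 4555. Before any normalization, the acetaldehyde spots were thus all above the control spots and the ethanol spots all below them, with no overlap between arrays.

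The miR-107 spots read 3078, 2831, 3012 and 2945 on the control array. Ethanol spots were 2465, 2442, 2260 and 2362, and acetaldehyde spots were 4011, 4222, 4336 and 4269. The order of the arrays was the same as for miR-103a-3p, again with no overlap. The spots of a member had a coefficient of variation of 3.33% to 5.33% on an array, which covers printing and reading of spots only.

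Both members were well measured. The detection level of an array was set 3 SDs over the median of its 1368 empty spots, and a detected probe had its mean and 50% or more of its spots over it. The mean of either member was 9.55 to 43.0 times that level. No spot of either was dark, meaning under 50% of its probe's median net signal.

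**Figure D1:**
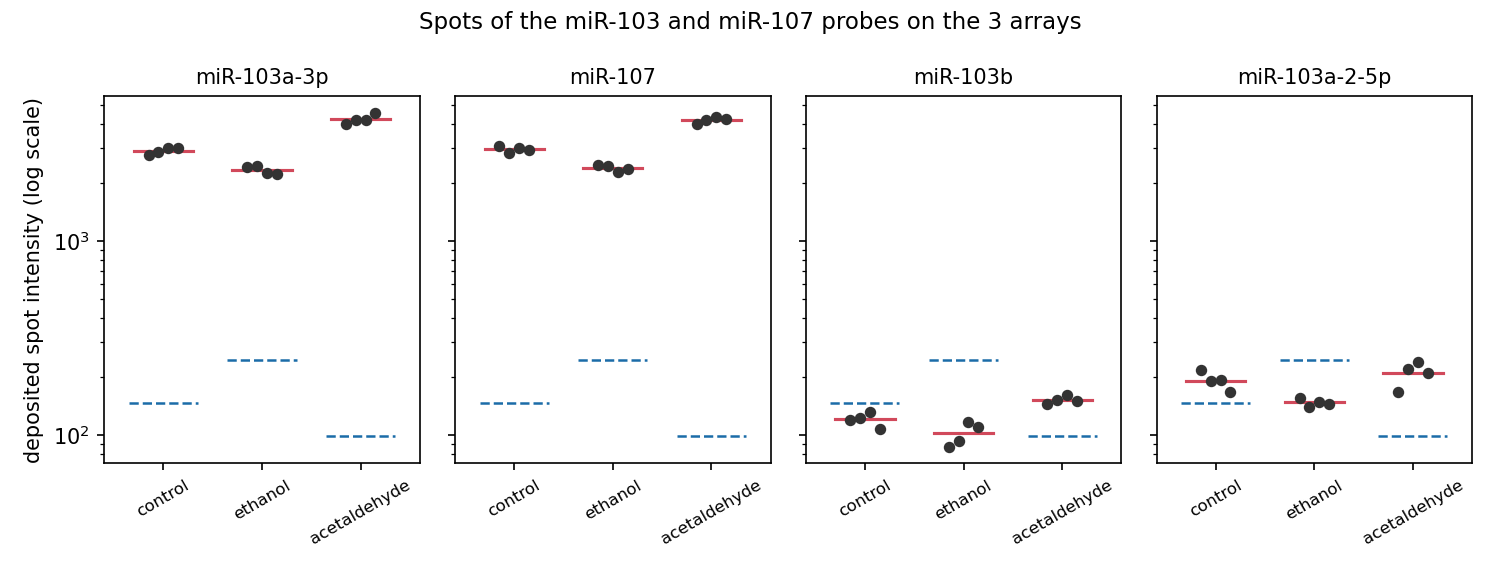
Deposited intensity of each of the 4 spots (points, log scale) with their mean (red bar) and the array's detection level (blue dashes) for the 4 probes of the miR-103/107 name on the control, ethanol and acetaldehyde arrays. The spots of miR-103a-3p and miR-107 lie far above the level on all arrays, and those of miR-103b and miR-103a-2-5p lie near or below it.

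The arrays differed as a whole, which bears on every comparison. Control, ethanol and acetaldehyde arrays had 775, 347 and 1430 detected microRNAs, at detection levels of 146, 243 and 98.8. Without normalization, the median over all probes differed from control by 0.31 with acetaldehyde and by -0.13 with ethanol (log2). Values were therefore quantile normalized over the microRNA probes after background correction, and log2 differences are given with the SD over the 4 spot positions (1 array per group). That SD says nothing about variation between cultures.

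After normalization, miR-103a-3p had an intensity of 2652 in control, 2433 with ethanol and 4384 with acetaldehyde. miR-107 had 2707, 2574 and 4187 on the same arrays. For both, the normalized acetaldehyde spots did not overlap the control spots, whereas the ethanol and control spots overlapped. The authors' deposited table, whose normalization method is not stated in the labels, holds 2412, 2422 and 4229 for miR-103a-3p and 2437, 2478 and 4150 for miR-107.

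With acetaldehyde, miR-103a-3p was 1.65-fold higher than in control cells (log2 difference 0.73 ± 0.051, SD over 4 spot positions), except that both scalings to the spike probes put it below control. miR-107 was 1.55-fold higher (0.63 ± 0.085), with the same exception. Each was higher at 4 of 4 positions, from 0.66 to 0.79 for miR-103a-3p and from 0.51 to 0.70 for miR-107. Among the 774 microRNAs detected on both arrays, 7.75% were higher by 1.5-fold or more, 8.14% were lower by that much, and the median difference was -0.07. Of those 774, 28 had a higher difference than miR-103a-3p and 49 a higher one than miR-107. Neither member reached 2-fold, a size that 1.03% of detected microRNAs reached in the higher direction and 1.81% in the lower.

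The placement was also read among bright probes. Of the 242 detected microRNAs whose normalized intensity reached 500 in control or with acetaldehyde, 16.1% were 1.5-fold or more higher with acetaldehyde and 10.7% lower. There, 21 had a higher difference than miR-103a-3p and 31 a higher one than miR-107. The members thus stood among the upper differences of both sets.

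The balance of higher and lower microRNAs depended on the scaling. The main setting gave 60 at least 1.5-fold higher and 63 lower, no normalization gave 101 and 46, and a shift to the median of detected microRNAs gave 263 and 22. A shift to the 5S probes gave 176 and 28. The planned shift to the spike probes gave 0 and 639, and a shift by the spikes' own median difference gave 1 and 360.

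The spike scalings turn the members' direction. The array carries 43 spike calibration probes, which bind RNAs added to the sample and not RNAs of the cells. The spike and 5S differences given here are without normalization, where miR-103a-3p and miR-107 read 0.55 and 0.51. The spikes' own acetaldehyde minus control differences had a median of 0.60 and ran from -0.33 to 1.56, with 41 of 43 above 0. The 12 spikes within 1 log2 unit of the members' level had a median of 0.78 and a range of 0.21 to 1.56. The 6 probes for 5S ribosomal RNA, an RNA of the cells themselves, ran from -0.26 to -0.12. The planned shift used the difference between the spike medians of the arrays, which was 1.09 for acetaldehyde against control. Shifted by it, the differences were -0.54 for miR-103a-3p and -0.58 for miR-107. Shifted by the spikes' own median difference they were -0.05 and -0.09. Whether the amount of RNA, its labelling or the spikes differed between the arrays was not tested.

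A shift moves all microRNAs alike and leaves their order in place. Over the alternatives run, 3.10% to 14.1% of detected microRNAs had a higher acetaldehyde difference than miR-103a-3p, and 3.36% to 16.7% a higher one than miR-107. Relative to the median of all detected microRNAs, the members lay 0.48 to 0.89 and 0.45 to 0.84 log2 units higher. The place of both members above that median held in every alternative run. Under the shifts, spike scalings included, that place could not differ from the one without normalization, so they add no check of it.

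**Figure D2:**
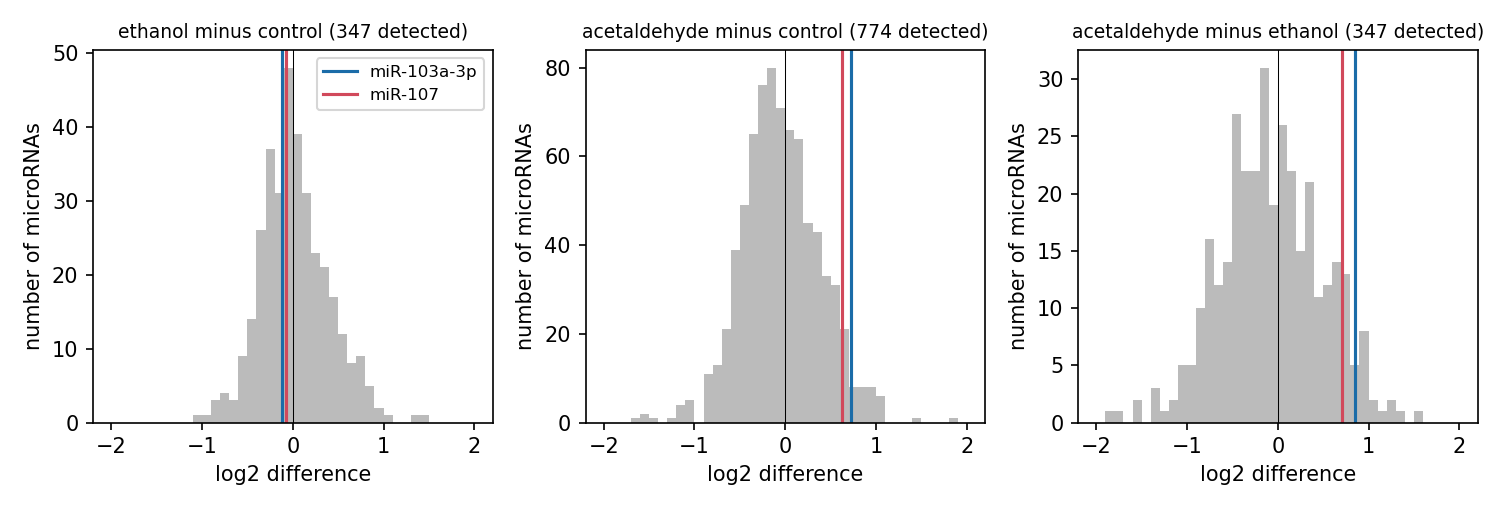
Number of microRNAs detected on both arrays (grey bars) by log2 difference, with miR-103a-3p (blue line) and miR-107 (red line), for the 3 comparisons after quantile normalization. The members lie near 0 for ethanol minus control and in the upper tail for the comparisons with acetaldehyde, with differences of 0.73 and 0.63 against control that turn below 0 under the spike scalings.

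With ethanol, both members were close to control. miR-103a-3p differed by -0.12 ± 0.12 and miR-107 by -0.07 ± 0.083 (log2, SD over 4 spot positions), and each was above 0 at 1 of 4 positions. Among the 347 microRNAs detected on both arrays the median difference was 0, and 8.65% were higher by 1.5-fold or more and 3.46% lower by that much. The members were in neither set, and 224 and 202 of the 347 had a higher difference than miR-103a-3p and miR-107. The sign depended on the setting, from -0.33 without normalization to 0.09 with a shift to the median of detected microRNAs for miR-103a-3p, and from -0.32 to 0.10 for miR-107. These ethanol differences cannot be told from 0, and with 1 array per group no difference of any size can be told from variation between cultures.

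Set directly against the ethanol array, the acetaldehyde array was 1.80-fold higher for miR-103a-3p (0.85 ± 0.13) and 1.63-fold higher for miR-107 (0.70 ± 0.10), except under the spike scalings, which gave -0.47 and -0.52 with the planned shift and 0.20 and 0.15 with the shift by the spikes' own median difference. Of the 347 microRNAs detected on both arrays, 14.7% were higher by 1.5-fold or more and 17.9% lower by that much. 18 of them had a higher difference than miR-103a-3p and 31 a higher one than miR-107. Outside the spike scalings, the differences ran from 0.71 to 0.88 and from 0.69 to 0.83.

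**Figure D3:**
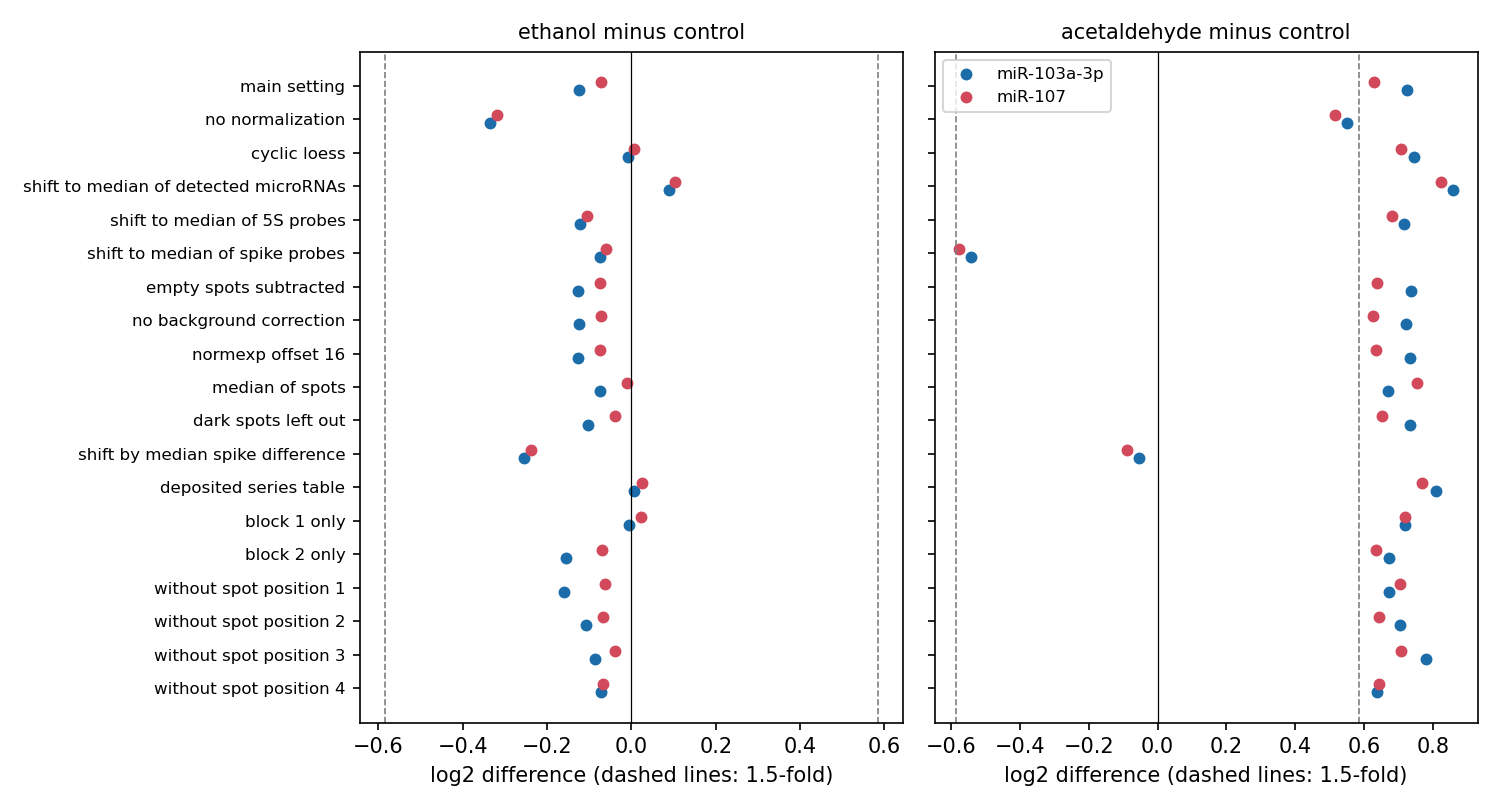
Log2 difference of miR-103a-3p (blue) and miR-107 (red) under the main setting and each of 18 alternatives, for ethanol minus control and acetaldehyde minus control, with 1.5-fold marked by dashed lines. Acetaldehyde points sit at 0.51 or higher except under the 2 spike scalings, where they are below 0, and ethanol points lie on both sides of 0.

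The probes gave nearly the same difference. With acetaldehyde, the miR-107 difference minus the miR-103a-3p difference was -0.10 ± 0.096 against control and -0.15 ± 0.094 against ethanol. In the main setting it was below 0 at 4 of 4 spot positions in both comparisons, but each position carries the normalization step. The highest positions were -0.012 and -0.069, and without normalization the gap against control was -0.035. The 4 of 4 is therefore no separate check of the sign. With the median of the spots in place of their mean, the gap was 0.083 and 0.019, so the sign rests on how spots are combined. For ethanol against control it was 0.05 ± 0.098.

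Other probe pairs that differ by 1 base give a rough scale for this gap. There were 19 such pairs, the members' included, among the 347 microRNAs detected on all 3 arrays. Some of them share a probe, such as let-7a-5p, and the place of the differing base was not matched. For acetaldehyde against control, the size of the gap ran from 0.05 to 1.17 with a median of 0.22, and 7 pairs had a smaller gap than the members' 0.096. Let-7a-5p with let-7f-5p and miR-19a-3p with miR-19b-3p each held a dark spot. With dark spots left out, the median was 0.084, the members' gap was 0.083, and the highest was 0.59, for miR-10a-5p with miR-10b-5p. In that pair the higher of the 2 SDs over spot positions was 1.05, against 0.085 for the members, so its gap is poorly measured. Dark spots were sought only in probes with a median net signal over 300. Probes 1 base apart thus differed by more than the members in part of the pairs, and the members' gap was near the middle of the set.

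**Figure D4:**
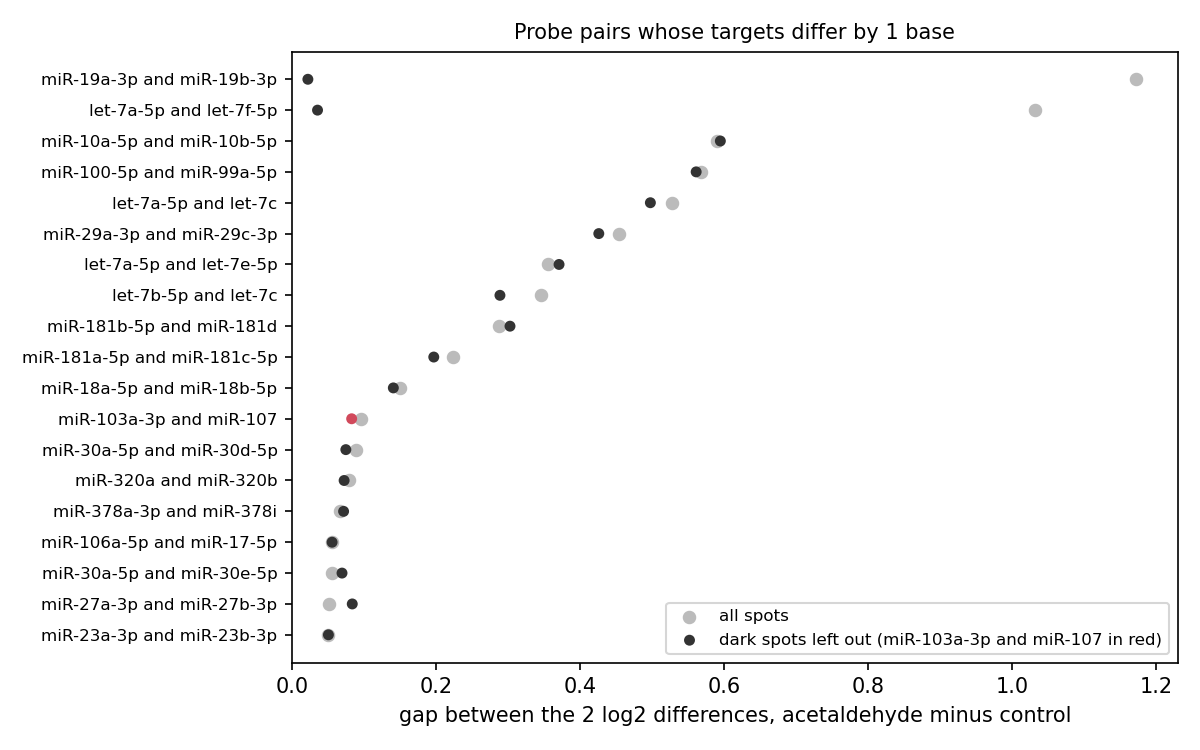
Size of the gap between the acetaldehyde minus control log2 differences of each of the 19 probe pairs whose targets differ by 1 base, with all spots (grey) and with dark spots left out (black, or red for miR-103a-3p and miR-107). The members' pair is at 0.096 and 0.083, and the highest pairs with all spots hold a dark spot.

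Beyond each other, the members had no close match on the array. No other target came within 4 edits of either, and the nearest was miR-4289 at 5 edits, followed by miR-23a-3p at 7.

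The other entries of the name were dim. miR-103b read 120, 123, 132 and 108 on the control array, with 0 of 4 spots above the detection level, and 87.2, 93.1, 117 and 111 on the ethanol array, below the empty spots' median of 148. On the acetaldehyde array it read 145, 151, 160 and 150 and was detected there, where the level was lower, at 98.8. No fold is given for a probe below the detection level on the other array.

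miR-103a-2-5p, the opposite arm of the MIR103A2 hairpin, read 217, 189, 192 and 166 on the control array. It read 156, 139, 149 and 145 on the ethanol array, where it was not detected, and 166, 219, 237 and 210 on the acetaldehyde array. Its acetaldehyde minus control difference was -0.05 ± 0.34, and its positions ran from -0.55 to 0.18, on both sides of 0. The MIR103A1 and MIR107 hairpins carry nearly the same bases in their opposite arms. This probe may therefore bind RNA from them as well, which was not tested.

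The seed relatives carry the same letters at a shifted place. These microRNAs of the miR-15/16 family, known to lower cyclins and BCL2, hold AGCAGCA from base 2, whereas the members hold it from base 1. A search for AGCAGCA within bases 1 to 8, on the given strand, found 8 of the 2019 targets, of which 2 are the members. The pair below, with seeds in capitals, shows the shift.
miR-15a-5p: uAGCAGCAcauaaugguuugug
miR-16-5p: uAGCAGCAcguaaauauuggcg

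Of 9 listed relatives, 8 were on the array, and miR-503-5p and miR-646 among them share AGCAGC only. With ethanol, the 5 detected on both arrays had a median difference of -0.34 against 0 for all detected microRNAs. Of these, 4 were below 0, and the median was below 0 in every alternative run for the lists, which left out those by block or spot position. miR-16-5p, which restrains the cell cycle, read -0.40 ± 0.06, and miR-15b-5p, of the same family, read -0.34 ± 0.07. miR-15a-5p read -0.41 ± 0.11. The members' ethanol differences, -0.12 and -0.07, were nearer 0.

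With acetaldehyde, the 6 relatives detected on both arrays had a median of 0.11 against -0.07 for all, with 3 above 0 and 2 below, and the median turned to -0.02 without normalization and to -1.11 and -0.62 under the spike scalings. miR-16-5p read 0.21 ± 0.17 and miR-15b-5p read -0.16 ± 0.12. Only miR-424-5p, 1 of 6 against 7.75% of all detected microRNAs, reached 1.5-fold, at 0.60 ± 0.49 with a dark spot and 0.83 without it, and 0 of 6 did so without normalization. A single member of so short a list is no result about the relatives. The remaining values were 0.00 ± 0.20 for miR-15a-5p, 0.47 ± 0.59 for miR-195-5p and -0.42 ± 0.16 for miR-497-5p. The 0.00 is a tie set by quantile normalization, since the mean spot intensities of miR-15a-5p were 2054 in control and 1878 with acetaldehyde. Against ethanol, the 5 relatives detected on both arrays had a median of 0.59, with the largest value, 0.62 ± 0.20, in miR-195-5p, and the spike scalings put that median at -0.81 and -0.14.

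**Figure D5:**
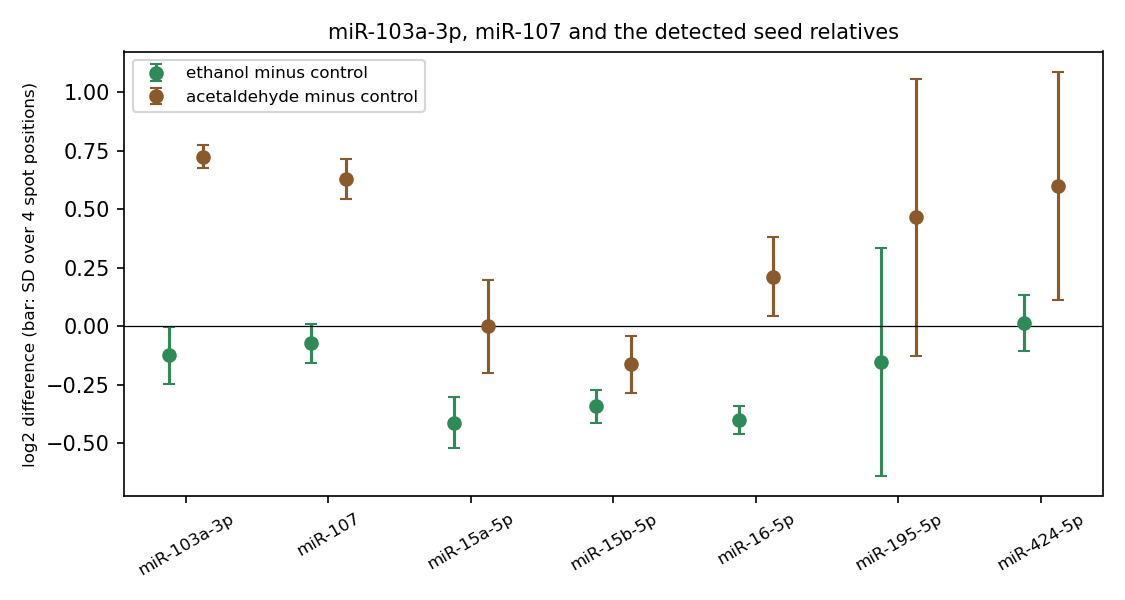
Log2 differences of miR-103a-3p, miR-107 and the 5 seed relatives detected on all arrays, for ethanol minus control (green) and acetaldehyde minus control (brown), with bars for the SD over 4 spot positions. With acetaldehyde, miR-15b-5p and miR-15a-5p lie at -0.16 and 0.00, below the members at 0.73 and 0.63, and the spike scalings move all of these acetaldehyde values below 0. The 0.00 is a tie set by quantile normalization.

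Other microRNAs known from glucose and lipid metabolism were read as a list of 17, of which 10 were detected on both arrays in each comparison. With acetaldehyde the median of the 10 was 0.55 against -0.07 for all detected microRNAs, and 10 of 10 were above 0, but the median was -0.76 and -0.27 under the spike scalings. Without normalization 9 of 10 were above 0. The targets of miR-27a-3p and miR-27b-3p differ by 1 base, as do those of miR-29a-3p and miR-29c-3p. Their probes may therefore bind both RNAs of a pair, which was not tested. At least 1.5-fold higher were 4 of the 10, against 7.75% of all detected microRNAs and 16.1% of the bright ones. All of the 10 except miR-378a-3p were bright. The count was 1 of 10 without normalization, where 101 of all 774 were that much higher. It was 2 of 10 both with cyclic loess and in the deposited table, where 49 and 133 of all 774 were, so an excess over the background is not shown. miR-126-3p, best known from endothelial cells, was highest at 0.93 ± 0.090. miR-29a-3p, of a family known to repress collagens and to alter insulin signalling, read 0.36 ± 0.074. miR-27a-3p, a repressor of fat cell formation, read 0.57 ± 0.068, and miR-378a-3p, encoded within the gene of the coactivator PGC-1β, was lowest at 0.13.

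The members' values of 0.73 and 0.63 lay within that list's range. With ethanol, the list's median was -0.05, with 3 above 0 and 5 below, and a range over alternatives from -0.33 to 0.09. The largest ethanol difference was that of miR-27b-3p, at -0.44 ± 0.057. miR-27a-3p read -0.34 ± 0.12 and miR-29a-3p read 0.00 ± 0.15. The latter is a tie set by quantile normalization, since the mean spot intensities of miR-29a-3p were 11791 in control and 10617 with ethanol. Against ethanol, the acetaldehyde median was 0.71 with 9 of 10 above 0, and miR-29c-3p was highest at 1.04 ± 0.069. At least 1.5-fold higher were 6 of 10, against 14.7% of all. That count was 7 of 10 without normalization and 5 of 10 both with cyclic loess and in the deposited table. Over all microRNAs the count was 51 of 347 in the main setting. It ran from 39 to 100 over the alternatives outside the spike scalings, with the 100 reached without a detection filter. The spike scalings gave a median of -0.62 and 0.05 with 0 of 10 at that size. The share among bright microRNAs is not given for this comparison, so an excess over the background is not shown.

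Of 8 microRNAs described as induced by p53, a list that includes miR-107 itself, 7 were detected on both arrays with acetaldehyde. Their median was 0.34 against -0.07 for all detected microRNAs, with 5 above 0 and 2 below, and it ran from 0.33 to 0.82 over the other alternatives but was -0.58 and -0.09 under the spike scalings. At least 1.5-fold higher were 3 of the 7, miR-107 among them, against 7.75% of all. The count was 2 of 7 without normalization, where 101 of all 774 were that much higher. It was 4 of 7 with the detected median, where 263 of 774 were, and 0 of 7 under both spike scalings, where 0 and 1 were. A list this short, with a member in it, shows no excess over the background. The 2 below 0 were miR-34c-5p at -0.39 ± 0.12 and miR-34b-5p at -0.21 ± 0.076. Both were dim, with mean spot intensities of 223 and 180 in control, where the detection level was 146, and were not detected with ethanol. With the shifts to the detected median and to the 5S probes, 7 of 7 were above 0, so their sign depended on the scaling. miR-194-5p read 0.98 ± 0.24. miR-34a-5p, a repressor of cell cycle genes and a direct p53 target, read 0.23 ± 0.15. With ethanol, 4 were detected on both arrays and their median was 0.12, with a range over alternatives from -0.14 without normalization to 0.38 in the deposited table. miR-194-5p read 0.37 ± 0.24. miR-34a-5p read -0.32 ± 0.80 there with a dark spot and 0.09 without it.

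The profile of the members over the 3 arrays was also matched by distance, using log2 values centred on their own mean. Among 245 candidates detected on all arrays and reaching an intensity of 500 on any of them, the nearest were miR-30d-5p at 0.026, miR-17-5p at 0.067, miR-3607-3p at 0.068, miR-30a-5p at 0.070 and miR-335-5p at 0.075. The median of all candidates was 0.68 and the members lay 0.11 from each other. These names depended on the setting: 2 of the 5 stayed among the nearest 5 without normalization, and 0 with block 1 alone. miR-335-5p held a dark spot on the ethanol array.

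The cell line label was checked against marker microRNAs. Of 7 epithelial and basal mammary markers, 6, 5 and 7 were detected on the control, ethanol and acetaldehyde arrays, with summed normalized intensities of 41636, 38136 and 46786. In these sums miR-205-5p, a marker of basal epithelium, holds 22121 on every array, a value set by quantile normalization. The markers differed among themselves with acetaldehyde. miR-203a, a microRNA of keratinizing epithelium, read 1.07 ± 0.093 and miR-141-3p, of the miR-200 family, read 0.71 ± 0.087, while miR-200b-3p read -0.29 ± 0.35 and miR-200c-3p read -0.12 ± 0.096. With ethanol, miR-203a read -0.49 ± 0.10. The median of the 6 epithelial markers detected on both arrays with acetaldehyde was 0.05, and it ran from -0.71 with the planned spike shift to 0.69 with the detected median. Of 7 mesenchymal and fibroblast markers, 2, 2 and 6 were detected, and miR-10b-5p and miR-214-3p were the ones detected in control and with ethanol. Sums over that list were 1102, 1127 and 1082, but they include undetected probes at background level and so do not check the label. Of 5 blood markers, 0, 0 and 1 were detected, and miR-122-5p, the liver marker, on none. The detection level was lowest on the acetaldehyde array, and the part of these markers in the members' differences was not tested.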

How the data were processed

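MicroRNAs were measured on 3 one-colour arrays, 1 per group. Per the labels' protocols, 2 µg of total RNA was tailed, ligated to a tag and stained with Cy5. Each array's deposited file gives 1 median intensity per spot and has no background column. The authors' deposited series table holds 1 linear intensity per probe, and its normalization is not given in the sources used here. Scanner and image software are not given either.

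Here, spot intensities were background-corrected by normexp, with an offset of 50 and a fit on every spot (limma 3.58.1, R 4.3.3). They were taken to log2, averaged over 4 spots and quantile normalized over 2019 probes; the log2 step is not part of the deposited values. Later steps used Python 3.11.15. The number of arrays limits the precision.

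Probe names were matched to RefSeq by name or sequence: the array's miR-215 was matched to miR-215-5p by sequence. In the seed relative, metabolism and p53 lists, a microRNA was named when it was among the 2 brightest detected members or had the largest difference in a comparison. Further list members and the cell type markers given with values were named after their values were seen. The 5 nearest profiles were named as well. The members and lists were chosen with earlier results of these data known. No test was run, and alternatives changed the background, normalization, spots and detection.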

Additional observations from a re-analysis of the deposited data

How the results depend on the processing

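Of 18 alternatives, 17 were planned and the shift by the spikes' median difference was chosen after seeing the data, as were the lists and nearest profiles by setting. Values follow in the order miR-103a-3p, miR-107. Against control, acetaldehyde gave 0.55 and 0.51 without normalization, under 1.5-fold, 0.86 and 0.82 with the detected median, 0.67 and 0.75 with the median of spots, and 0.81 and 0.77 in the deposited table. Block 2 alone gave 0.67 for miR-103a-3p and block 1 alone 0.72 for miR-107. Without spot positions 1, 3 and 4, miR-103a-3p gave 0.67, 0.78 and 0.64. The planned spike shift reversed both, to -0.54 and -0.58, and the added shift gave -0.053 and -0.088. Acetaldehyde against ethanol gave -0.47 and -0.52 with the planned spike shift and 0.20 and 0.15 with the added one. It gave 0.71 for miR-103a-3p without position 4 and 0.83 for miR-107 without normalization. Ethanol against control gave -0.33 and -0.32 without normalization, 0.089 and 0.10 with the detected median, 0.0054 and 0.024 in the deposited table, and -0.25 and -0.24 with the added spike shift. Block 1 alone gave 0.023 for miR-107.

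Counts at least 1.5-fold higher and lower were 30 and 12 for ethanol against control, ranging over 5 to 49 and 9 to 82. They were 60 and 63 for acetaldehyde against control, ranging over 0 to 263 and 22 to 639, and 51 and 62 for acetaldehyde against ethanol, ranging over 0 to 100 and 41 to 309. No paired analysis was possible because each group had 1 array. Single arrays limit every value, and spot SDs leave out culture variation. Signal near the empty spots limits miR-103b and miR-103a-2-5p, and dim list members such as miR-34b-5p, miR-34c-5p and miR-497-5p.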
